A study of Mus musculus with 1920 samples.

Results

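Microglia sorted from the corpus callosum during cuprizone remyelination were compared with microglia of untreated corpus callosum, with 4 labelled mice in each group. The study's design text gives 3 to 4 mice per condition, and each of the 4 replicate labels of a group was taken as 1 mouse, on which every SD and p-value here rests. Wells were assigned to the groups by their labels and kept when they held 20000 or more gene counts and 500 or more detected genes, with under 25% of counts from the mitochondrial chromosome and under 50% from spike-in RNA. This left 129 wells of remyelination (29, 33, 36 and 31 for mice 1 to 4) and 173 of untreated corpus callosum (45, 42, 46 and 40), or 302 of the 1644 kept wells and 1920 wells of the series. All animals were CD1 mice aged 16 weeks. The untreated mice had received no treatment, and the labels give neither dose nor times of the cuprizone course. The 161 kept wells of cuprizone demyelination (4 mice) served as the second comparison, because they shared a plate with remyelination, while untreated corpus callosum lay on another plate. Plate and treatment therefore cannot be told apart in any difference from untreated tissue. Cells stained for CD11b and CD45, and for Ly6C, Ly6G and CD206, were sorted 1 per well, with the gate not stated, and were sequenced by Smart-seq2, which reads full-length cDNA and carries no molecular identifiers.

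Cuprizone is a copper chelator that kills oligodendrocytes and strips the corpus callosum, the large white matter tract between the hemispheres, of myelin. When it is withdrawn, precursor cells mature into oligodendrocytes and new myelin forms. Microglia, the resident macrophages of the brain, take up the cholesterol-rich myelin debris, break it down in lysosomes and pass cholesterol on with apolipoproteins, and they leave the resting state marked by receptors such as P2ry12 and Tmem119.

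The summed depth was 10921747 to 15279695 counts per remyelination mouse and 7916457 to 10871196 per untreated mouse. Fewer remyelination wells passed the filters (67.9% against 91.1%), with 60 of 190 failing on spike-in share. The kept remyelination wells had more counts (median 383610 against 201705) but fewer detected genes (median 1517 against 2926), a higher mitochondrial share (median 2.24% against 1.19%) and more spike-in reads. Remyelination mice 1 and 2 had the highest spike-in levels, with 39.4 and 31.9 spike-in reads per 100 gene reads, against 23.7 and 22.7 in mice 3 and 4 and 9.22 to 14.3 in untreated mice. The part of these differences in the results below was not tested, except where values from a subset of wells or mice are given. The sorted cells carried microglial RNA: 126 of 129 remyelination wells and 173 of 173 untreated wells had reads of at least 3 of 12 microglia markers.

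Remyelination differed from untreated corpus callosum in 438 of 14057 tested genes, which is 3.12% of them, by edgeR's quasi-likelihood test on counts summed per mouse with an adjusted p under 0.05. Of these, 353 were higher (2.51%) and 85 lower (0.605%). In 417 of the 438 the 4 remyelination mice did not overlap the 4 untreated mice, while over all tested genes 17.8% did not overlap, 5.54% higher and 12.2% lower. Sums over sorted cells cannot tell fewer expressing cells from less RNA per cell. Levels are TMM-scaled CPM of this fit, that is a gene's counts over the scaled library total, with SD over 4 mice. Summed levels of whole lists are instead scaled over the 40 sums of the series. The median log2 fold change over all tested genes was -0.31, and -0.48 with the RLE scaling, so changes are to be read against that shift. The balance of higher and lower genes depended on the tool: DESeq2 called 632 higher and 930 lower, of which 342 and 84 were among the genes called by edgeR. Leaving out untreated mouse 2 or 4 left 230 higher genes each, and leaving out any 1 of the 8 mice left 26 to 55 lower genes. With remyelination mice 3 and 4 alone, 290 genes were higher and 43 lower, of 20572 tested. Among wells with 1000 to 2500 detected genes, where the groups are more alike in complexity, 74 were higher and 12 lower, of 8037 tested. That subset held 5 to 11 wells per untreated mouse and 10 to 21 per remyelination mouse.

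Apoe, Cd74, Cybb and Selplg mark the contrast. Apoe (chromosome 7, 19696109 to 19699188, GRCm38) encodes apolipoprotein E, the main lipid carrier of the brain. It stood at 236600, 157000, 137800 and 137900 CPM in remyelination mice 1 to 4 and at 666, 345, 1781 and 219 CPM in untreated mice. Every remyelination mouse was far above every untreated mouse, a 222-fold difference (log2 fold change 7.80 ± 0.68 SE, adjusted p = 3.8e-05 by edgeR). Apoe alone took 11.9% to 17.8% of all gene reads of the remyelination mice and 0.0298% to 0.227% of those of the untreated mice. Selplg (chromosome 5, 113818536 to 113832644), the P-selectin ligand that microglia carry at rest, went the other way. It was 747, 1224, 870 and 1010 CPM in remyelination and 4790, 4310, 4504 and 4828 CPM in untreated mice, 4.79-fold lower without overlap (log2 fold change -2.26 ± 0.19, adjusted p = 2.4e-06 by edgeR).

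Cybb (chromosome X, 9435252 to 9487771) encodes gp91phox, the catalytic subunit of the phagocyte NADPH oxidase. It was 874, 1060, 1489 and 811 CPM in remyelination, and 0, 0.369, 1.66 and 0 CPM in untreated mice. It was thus close to unread in untreated corpus callosum (log2 fold change 10.97 ± 1.04, adjusted p = 9.4e-06 by edgeR). Cd74, the invariant chain that escorts MHC class II molecules, varied most among the remyelination mice, at 544, 7808, 4969 and 2172 CPM. Its untreated values were 20.0, 18.8, 84.7 and 1.74 CPM, and again the groups did not overlap (log2 fold change 6.95 ± 1.16, adjusted p = 0.0036 by edgeR). The Cd74 call was lost with remyelination mice 3 and 4 alone and among wells with 1000 to 2500 genes, while the direction stayed.

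**Figure D1:**
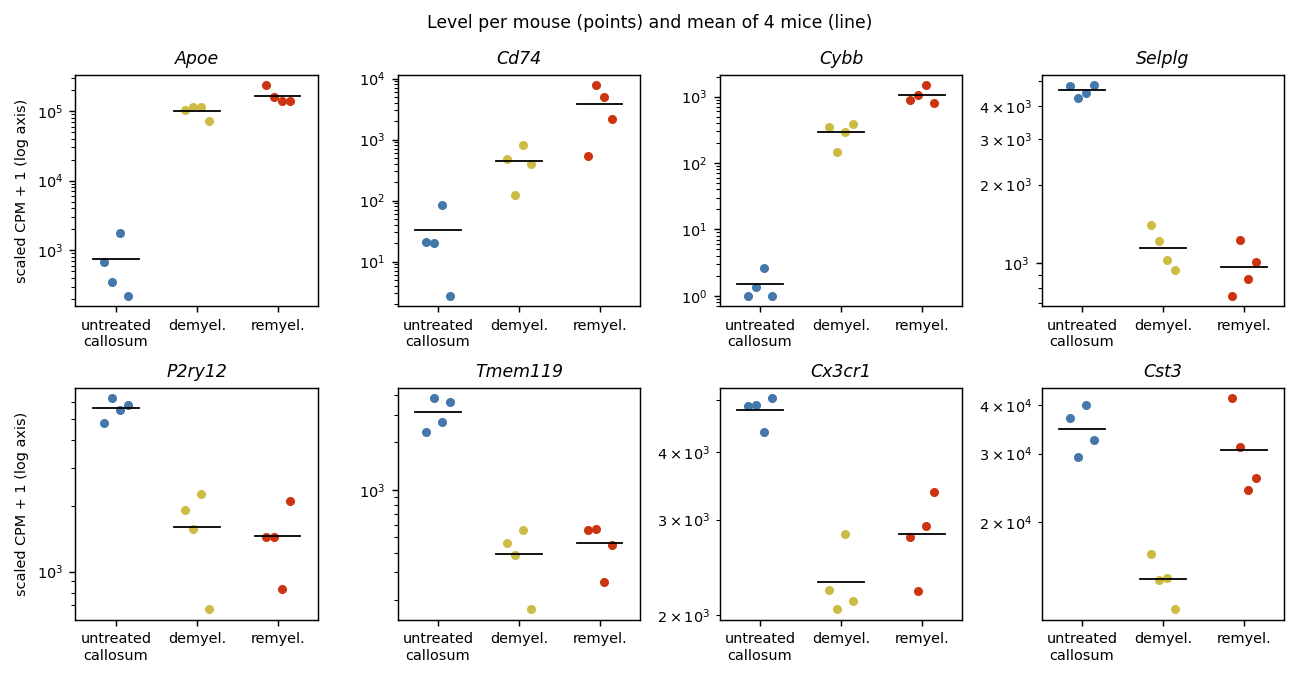
Level of 8 genes in each mouse, as scaled CPM + 1 on a log axis, with the mean of 4 mice as a line, in untreated corpus callosum, demyelination (demyel.) and remyelination (remyel.). Apoe, Cd74 and Cybb lie above the untreated mice, Selplg, P2ry12, Tmem119 and Cx3cr1 below, and Cst3 is lower in demyelination alone.

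Homeostatic receptors fell, though not as a whole list. Of 32 tested homeostatic microglia genes, 10 fell, 1 rose and 21 did not pass, with a median log2 fold change of -0.53 beside -0.31 for all genes. Tmem119, a membrane protein used as a microglia marker, was 558, 568, 262 and 448 CPM in remyelination and 2315, 3798, 2674 and 3627 CPM in untreated mice, 6.76-fold lower (adjusted p = 8.7e-05 by edgeR). P2ry12, the ADP receptor that guides microglial processes, was 1441, 1445, 828.6 and 2102 CPM against 4836, 6245, 5547 and 5847 CPM (log2 fold change -1.95 ± 0.31, adjusted p = 0.0014 by edgeR). For both genes the highest remyelination mouse lay below the lowest untreated mouse. The chemokine receptor Cx3cr1 fell less, from 4869, 4899, 4351 and 5033 CPM to 2783, 2216, 2923 and 3374 CPM (log2 fold change -0.76 ± 0.16). Siglech, a lectin of the Siglec family, fell from a range of 1367 to 2327 CPM to 457 to 836 CPM. The fructose transporter gene Slc2a5 was 430, 74.7, 81.9 and 123 CPM in remyelination mice and 594 to 1311 CPM in untreated mice (adjusted p = 0.020). The Slc2a5 call was lost without untreated mouse 2 or 4 or remyelination mouse 2, 3 or 4.

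Not every gene of the resting state passed the test. Csf1r, the receptor whose signal microglia need to survive, was 2729 to 4292 CPM in remyelination and 4372 to 6495 CPM in untreated mice, and did not pass (adjusted p = 0.10). The 1 member that rose was Lag3, a gene of an immune checkpoint receptor, at 248, 752, 312 and 447 CPM against 75.3, 67.8, 94.0 and 123 CPM (adjusted p = 0.0013). The count of fallen members was 13 with RLE scaling, 15 after thinning wells to 20000 reads, 6 among wells with 1000 to 2500 genes and 5 with remyelination mice 3 and 4 alone.

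The list of genes known from disease-associated microglia, a state described around plaques and damaged myelin, was higher almost throughout: 34 of 35 tested members rose, none fell, and the median log2 fold change was 3.55. The exception, Atp6v0d2, a proton pump subunit, was 48.7 ± 30.6 CPM against 1.13 ± 1.49 and missed the threshold (adjusted p = 0.094). Such lists were assembled on microglia in injury and are not independent of what this comparison holds. Clec7a, the beta-glucan receptor dectin-1, was 721, 856, 1208 and 460 CPM in remyelination, whereas the 4 untreated mice together had 1 count of it and the remyelination mice 35818. The chemokine gene Ccl3 was 120, 883, 774 and 958 CPM, with mouse 1 lowest, against at most 0.217 CPM in untreated mice. Cd63, a tetraspanin of late endosomes, was 1180, 1054, 1760 and 1101 CPM against 50.2, 62.0, 92.0 and 30.2 CPM (log2 fold change 4.44 ± 0.33). Ctsb, a lysosomal cysteine protease, was 15520, 8914, 10590 and 11060 CPM against 2103, 2333, 2436 and 1991 CPM, a 5.2-fold rise (adjusted p = 8.8e-07 by edgeR). In wells with 1000 to 2500 genes 18 of the 35 were called higher and 35 of 35 had a positive fold change. With remyelination mice 3 and 4 alone 31 of 35 were called higher.

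Further genes of reactive microglia were also far apart, and in each of those named here the groups did not overlap. Spp1, which encodes the secreted matrix protein osteopontin, was 4029, 4873, 17540 and 7973 CPM against 12.5, 36.1, 24.4 and 4.00 CPM, a 447-fold difference. Lyz2, the macrophage lysozyme gene, was 13600, 12230, 22410 and 6273 CPM against 337, 111, 125 and 66.4 CPM. Fth1, the ferritin heavy chain that stores iron, was 18780, 8658, 15820 and 9716 CPM against 1533, 913, 1503 and 840 CPM. The TAM receptor gene Axl, which binds apoptotic material through its ligands, was 1119, 1038, 750 and 1236 CPM against 0.425, 0, 1.23 and 9.66 CPM. The integrin gene Itgax was 204, 488, 439 and 317 CPM against 2.76, 7.30, 19.7 and 9.83 CPM. Cst7, which encodes the cathepsin inhibitor cystatin F, was 550, 178, 954 and 820 CPM, lowest in mouse 2, and at most 2.34 CPM in untreated mice. Fam20c, a secretory pathway kinase gene, was 241 to 659 CPM against 9.83 to 15.9 CPM, and the phospholipid-binding annexin gene Anxa5 was 614 to 1202 CPM against 17.9 to 62.9 CPM.

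Genes of lipid uptake and efflux rose. Of 25 tested genes of lipid uptake and cholesterol efflux 13 rose and none fell (median log2 fold change 2.11), and of 20 tested genes of cholesterol biosynthesis none passed in either direction (median 0.04). Scaled over the 40 sums of the series, the synthesis list summed to 573 to 1303 CPM in remyelination. It summed to 338 to 544 CPM in untreated mice, without overlap on that scale. The difference between the 2 lists was not tested. Apoc1 and Apoc4 lie in the gene cluster of Apoe. Apoc1 was 431, 454, 159 and 578 CPM against 0.425, 0.646, 1.08 and 4.44 CPM. Apoc4 was 374, 151, 45.1 and 104 CPM, with 6416 counts in the remyelination mice and none in the untreated mice, so it was at least 1590-fold higher against a floor of 3 counts over the group. Lipoprotein lipase, Lpl, was 891, 1165, 2033 and 2275 CPM against 57.4, 0.185, 2.39 and 2.35 CPM (log2 fold change 6.67 ± 1.29, adjusted p = 0.0099 by edgeR), and its call was lost when any 1 of the 4 remyelination mice was left out. The fatty acid binding protein gene Fabp5 was 98.7 to 122 CPM and at most 0.462 CPM in untreated mice. Npc2, which moves cholesterol out of the lysosome, was 1982 to 2938 CPM against 441 to 760 CPM, a 4.01-fold rise. In the synthesis list Nsdhl was 444, 1.24, 70.0 and 105 CPM, with mouse 1 far above the others, against 9.71 to 51.8 CPM, and Ebp was 89.4 to 199 CPM against 55.3 to 119 CPM.

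**Figure D2:**
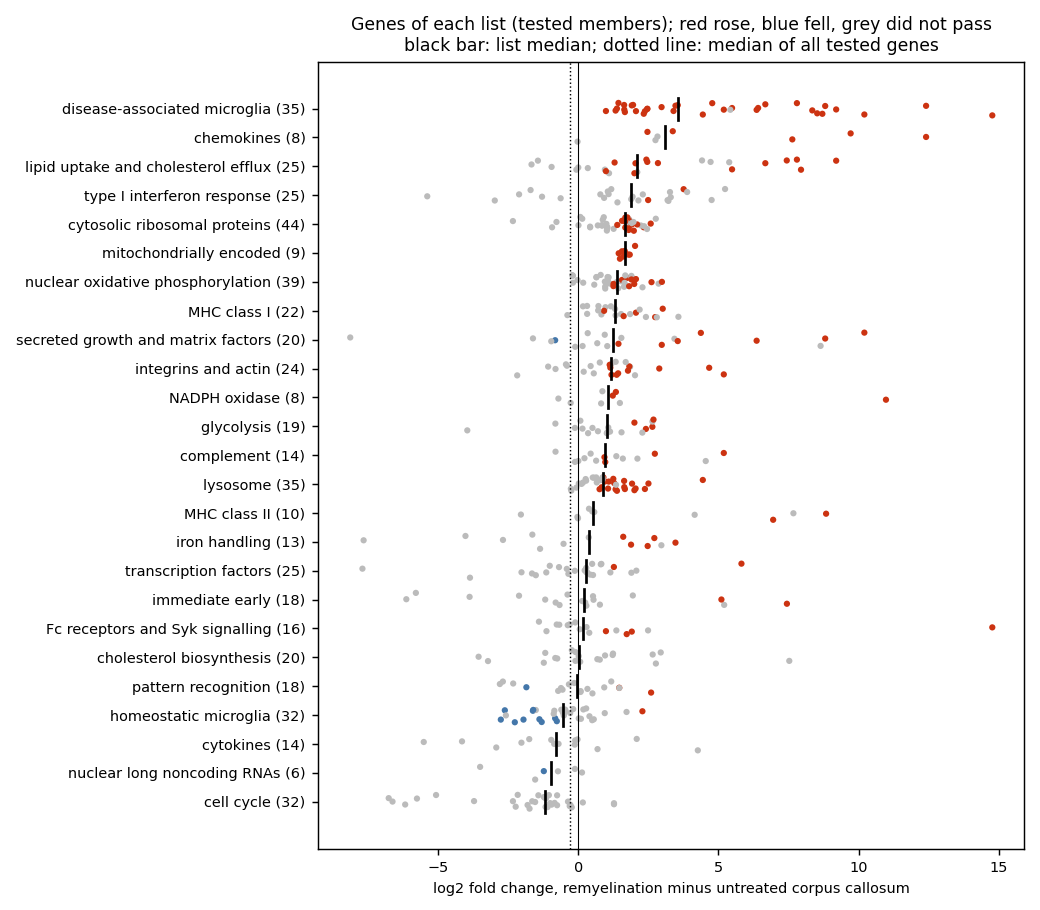
Log2 fold change of remyelination minus untreated corpus callosum for the tested genes of each list (number in brackets), with called genes in red (higher) and blue (lower) and the list median as a bar. The disease-associated list has its median at 3.55 and the cell cycle list at -1.18, beside -0.31 for all tested genes (dotted line).

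Of 35 tested lysosome genes 19 rose and none fell (median log2 fold change 0.90). Ctsd (chromosome 7, 142375911 to 142388038), the lysosomal aspartic protease cathepsin D, was 21830, 18870, 23100 and 19340 CPM against 6222, 5586, 8643 and 5777 CPM. The groups were far from overlapping (log2 fold change 1.66 ± 0.13, adjusted p = 1.9e-06 by edgeR). Grn, the gene of progranulin, a lysosomal protein that is also secreted, was 3148, 2255, 2817 and 3320 CPM against 1330, 1308, 1590 and 1292 CPM, 2.09-fold higher. Its sign reversed when log values were averaged per cell, and with Cyba, Cd14 and Bhlhe41 it was 1 of 4 named genes that did so. The count of risen lysosome genes was 13 with a stricter well filter, 4 among wells with 1000 to 2500 genes and 16 with mice 3 and 4 alone. The list median in wells with 1000 to 2500 genes was 1.07, beside 0.19 for all genes in those wells. In all kept wells it was 0.90, beside -0.31 for all genes.

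Lysosome genes often carry the letters TCACGTGA, the core of a motif bound by TFEB and its relatives, near their start. RefSeq promoters of GRCm38.p6, from 250 bases before to 50 after the start, were searched on both strands for 4 motifs chosen with these results known: TCACGTGA, CACGTG, which lies inside it, CTGATTGG, which holds an inverted CCAAT box as found in MHC genes, and an interferon response element. TCACGTGA was in 4 of the 16 risen lysosome genes with a promoter in the table (Atp6v0d1, Atp6v1a, Ctsa and Ctsd), in 0 of the 12 that did not pass, in 2.19% of all tested genes with a promoter and in 0.974% of all 32851 promoters. CACGTG was in 7 of the 16 and 2 of the 12, against 11.6% of tested genes and 7.15% of all promoters. The 150 bases before the start are shown for 3 lysosome genes that rose and for the MHC class II gene H2-Aa, 5′ to 3′ on the gene's strand, with the motif in capitals.
Ctsd, chr7:142387828-142387977, minus strand: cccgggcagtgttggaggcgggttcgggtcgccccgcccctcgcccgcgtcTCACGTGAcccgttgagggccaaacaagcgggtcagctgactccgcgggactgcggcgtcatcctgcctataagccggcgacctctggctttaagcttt
Ctsa, chr2:164833623-164833772, plus strand: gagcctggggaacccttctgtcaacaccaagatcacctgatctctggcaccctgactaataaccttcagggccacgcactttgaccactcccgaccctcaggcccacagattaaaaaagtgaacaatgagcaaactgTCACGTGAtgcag
Atp6v1a, chr16:44139260-44139409, minus strand: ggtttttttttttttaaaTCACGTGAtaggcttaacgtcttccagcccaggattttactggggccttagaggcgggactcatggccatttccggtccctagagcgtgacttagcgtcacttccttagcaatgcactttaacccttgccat
H2-Aa, chr17:34287824-34287973, minus strand: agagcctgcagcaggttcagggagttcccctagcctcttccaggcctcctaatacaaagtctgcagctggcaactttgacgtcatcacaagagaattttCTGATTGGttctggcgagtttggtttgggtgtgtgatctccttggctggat
CTGATTGG was in 3 of 7 tested MHC class II genes with a promoter (H2-Aa, H2-Eb1 and H2-Oa), 7 of 19 of class I, 6.37% of tested genes and 4.1% of all promoters. The interferon response element was in 11 of 18 tested interferon response genes, 5 of 19 of MHC class I, 3.79% of tested genes and 3.44% of all promoters. These matches describe letters and show no binding.

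Antigen presentation rose in its leading genes. In MHC class I, which shows peptides to CD8 T cells, 5 of 22 tested genes rose and none fell. Its light chain B2m was 8030, 5439, 7796 and 4519 CPM against 1756, 1668, 1586 and 1178 CPM, and the heavy chains H2-K1 and H2-D1 rose 6.69-fold and 8.07-fold. H2-K1 was 1233, 1292, 2010 and 932 CPM against 203, 278, 154 and 181 CPM. The immunoproteasome subunit gene Psmb8 was 275 to 420.4 CPM against 57.7 to 168 CPM (adjusted p = 0.013), a call lost without untreated mouse 2. In MHC class II 2 of 10 tested genes rose, Cd74 and H2-Aa. H2-Aa, an alpha chain, was 36.0, 2654, 1478 and 699 CPM against 1.02 to 3.47 CPM. Remyelination mouse 1 was much lower than the other 3 but still above all untreated mice (adjusted p = 0.012 by edgeR). The partner chain H2-Ab1 was 178, 1559, 1377 and 257 CPM against 0.435 to 75.9 CPM and did not pass (adjusted p = 0.062). The H2-Aa call was lost on leaving out remyelination mouse 3 or 4, or untreated mouse 1, 2 or 3.

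Of the other arms of innate defence, 3 of 8 NADPH oxidase genes rose: Cybb, its membrane partner Cyba and the GTPase gene Rac1. Cyba was 773 to 932 CPM against 306 to 424 CPM, and Rac1 445 to 594 CPM against 214 to 262 CPM. In the complement list 4 of 14 rose. C3ar1, the receptor of the C3a fragment, was 799, 862, 852 and 745 CPM against 110, 141, 93.2 and 146 CPM. C1qa, a chain of the first complement component, rose 1.95-fold to 5277 to 8974 CPM. With the stricter well filter 1 NADPH oxidase gene was called higher and 1 lower, and 2 complement genes were called higher. Among wells with 1000 to 2500 genes 1 gene of each list was called higher. Cyba, Rac1 and C1qa lost their calls in both settings. Among 18 pattern recognition genes Tlr2 and Cd14 rose, Tlr2 from 38.4 to 152 CPM up to 414 to 670 CPM. Tmem173, the gene of STING, an adaptor in the response to DNA in the cytosol, fell to 357, 383, 189 and 223 CPM from 1050, 1025, 792 and 1272 CPM (adjusted p = 0.0032). In the signalling list of Fc receptors and Syk, 4 of 16 rose, among them the adaptors Tyrobp (3799 to 5752 CPM against 956 to 1720) and Fcer1g (2182 to 3553 CPM against 710 to 1065). Trem2, the lipid receptor that signals through Tyrobp, was 1655 to 2531 CPM against 806 to 1276 CPM (adjusted p = 0.019) and lost its call under RLE scaling and without untreated mouse 1 or 2 or remyelination mouse 3. Of 25 type I interferon response genes 2 rose, Bst2 and Lgals3bp. The Bst2 values were 209, 52.3, 276 and 25.6 CPM against 2.44 to 14.1 CPM, and the call was lost without remyelination mouse 3.

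Secreted signals were dominated by chemokines and matrix factors. Of 8 tested chemokine genes 5 rose. Ccl4 was 61.4, 1425, 486 and 264 CPM against at most 5.204 CPM. Cxcl14 was 177, 137, 314 and 91.3 CPM against at most 0.554 CPM. Ccl6 was 1524, 700, 1178 and 1813 CPM against 149 to 358 CPM, and Cxcl16 331 to 429 CPM against 8.40 to 63.1 CPM. None of 14 tested cytokine genes passed in either direction, and Il1b had no count in the remyelination wells. Il1a, which encodes interleukin 1 alpha, was 86.5 to 155 CPM against 88.9 to 194 CPM. Of 20 secreted growth and matrix factors 7 rose and 1 fell. Igf1, a growth factor for oligodendrocytes, was 129, 265, 640 and 179 CPM against 0.142, 6.002, 0.578 and 8.09 CPM (log2 fold change 6.36 ± 0.97, adjusted p = 8.9e-04 by edgeR). The galectin genes Lgals3 and Lgals1 rose, Lgals3 to 1048, 274, 1497 and 652 CPM from at most 1.94 CPM. Sparc, a matrix protein gene that resting microglia express, was 2717, 1713, 1614 and 2745 CPM against 4063, 3873, 3656 and 3939 CPM (adjusted p = 0.021). Its call was lost without untreated mouse 1, 2 or 4, without remyelination mouse 2 or 3, and with remyelination mice 3 and 4 alone.

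Some metabolic and housekeeping genes rose, though outside the mitochondrial genome most members of these lists did not pass. All 9 tested mitochondrially encoded genes rose (median log2 fold change 1.66), for example mt-Nd1 at 6670 to 9424 CPM against 1819 to 3174 CPM. The mitochondrial share of the kept wells differed in the same direction, and its part in these rises was not tested. Among wells with 1000 to 2500 genes 0 of the 9 passed, though all 9 were higher. Of 39 nuclear genes of oxidative phosphorylation 10 rose and none fell, with Cox6b1, a subunit of complex IV, at 284 to 375 CPM against 63.4 to 114 CPM. Of 44 ribosomal protein genes 16 rose and none fell, with Rps3 at 863 to 1386 CPM against 246 to 399 CPM. With the stricter well filter 4 genes of oxidative phosphorylation and 7 ribosomal protein genes were called. Among wells with 1000 to 2500 genes 0 of 39 and 0 of 40 were called. The list medians there were 1.21 and 1.16, beside 0.19 for all genes in those wells. Counts of the ribosomal protein genes are uncertain, because reads shared with their pseudogenes can have been split or lost. In glycolysis 4 of 19 rose: Tpi1, Pkm, Ldha and Aldoa, the last at 843 to 2212 CPM against 170 to 375 CPM. Iron handling had 5 of 13 genes up, including Fth1, the light chain Ftl1 at 706 to 1048 CPM against 139 to 200 CPM, and the transferrin gene Trf. In the integrin and actin list 10 of 24 rose, with Tmsb4x at 10390 to 13140 CPM against 2149 to 4610 CPM. Of 18 immediate early genes Atf3 and Egr1 rose. Atf3 was 325, 219, 228 and 212 CPM against 0.609 to 19.9 CPM. Of 25 transcription factor genes Bhlhe40 and Bhlhe41 rose, and Bhlhe41 lost its call under RLE scaling, and without untreated mouse 1, 2 or 4 or remyelination mouse 3 or 4.

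None of 32 cell cycle genes passed in either direction, and their median log2 fold change was -1.18. Mki67 was 7.29, 0.722, 0.0759 and 69.1 CPM in remyelination and 9.42, 3.42, 23.6 and 62.9 CPM in untreated mice, overlapping widely. Cytokines, cholesterol biosynthesis and the cell cycle thus had no call by edgeR, where 3.12% of all tested genes were called. At that share, lists this short would hold few calls, so having none does not set them apart. By unadjusted p under 0.05 the share over all genes was 18.8% in the same edgeR test.

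Outside the lists, the largest rises among called genes of at least 100 CPM included Wfdc17, a secreted whey acidic protein gene, at 346, 29.2, 198 and 83.4 CPM against at most 0.217 CPM. Rab7b, a GTPase gene of late endosomes, was 101, 565, 410 and 181 CPM against at most 2.39 CPM. Among called genes with at least 100 CPM in untreated mice, Ttc39b fell furthest, to at most 2.07 CPM in remyelination from 90.7 to 137 CPM in untreated mice. Ccr6, a chemokine receptor gene, was 141, 43.8, 6.15 and 61.9 CPM against 656, 411, 229 and 697 CPM (adjusted p = 0.039), a call lost without untreated mouse 1, 2 or 4 or remyelination mouse 2 or 4. Slco2b1, an organic anion transporter gene, was 221 to 429 CPM against 903 to 1254 CPM. The adaptor gene Bin2 was 254 to 349 CPM against 747 to 918 CPM, and the checkpoint gene Vsir 645 to 1095 CPM against 1586 to 2251 CPM. Most of the 85 lower genes were weakly read: 38 had no count in any remyelination well and 52 averaged under 1 CPM there.

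Markers of other cells the sort could hold were low. Of 10 monocyte markers, 6 were tested and 1 rose: Fn1, at 0.486, 87.4, 247 and 38.7 CPM against 0.870 to 10.3 CPM (adjusted p = 0.049). Its call was lost when any of remyelination mice 2, 3 and 4 or any untreated mouse was left out. Ly6c2 and S100a6 had no count in remyelination. The summed level of the list, scaled over the 40 sums of the series, was 15.7 to 327 CPM against 19.3 to 180 CPM. Of 10 border macrophage markers, 6 were tested and 1 rose: Ms4a7, at 297, 136, 240 and 59.3 CPM against at most 1.48 CPM (adjusted p = 0.0097). The Ms4a7 call was lost with the stricter well filter and among wells with 1000 to 2500 genes. Of 129 remyelination wells, 3 held 50% of the Ms4a7 level. The border macrophage list summed to 208 to 440 CPM against 7.58 to 27.7 CPM on the scale of the 40 sums. Its members Lyve1, Cd163 and Cd209f had no count in remyelination. No kept remyelination well had reads of 3 or more markers of either list. Mbp, a myelin gene of oligodendrocytes, was 572, 56.9, 101.8 and 507 CPM against 31.9 to 88.4 CPM, and 1 remyelination well held over 50% of the Mbp level summed over the wells (adjusted p = 0.0499). Its call was lost without remyelination mouse 1 or 4 or without any untreated mouse. The endothelial gene Flt1, at 23 to 328 CPM against 1.66 to 36.5 CPM, passed at adjusted p = 0.045 and lost its call under 12 of 23 alternatives, among them without untreated mouse 1, 2 or 3 or remyelination mouse 1, 3 or 4. Lists of neutrophils, T and NK cells, B cells, astrocytes, neurons and red cells had no call, and the dendritic cell list had 1, Siglech, which also marks microglia. The part of other cells in the results was not tested.

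In single wells the changes differed in kind. Wells were thinned to 20000 reads each, and the share of wells with at least 1 read was taken per mouse for a panel of 34 genes. By an exact two-sided permutation test over the 4 and 4 mice, 23 of the 34 passed after Benjamini-Hochberg adjustment, 17 higher and 6 lower, all at the smallest p the design allows (p = 0.0286, adjusted p = 0.0422). Without any 1 untreated mouse none passed, as 16 or 17 genes were then at that p and the adjustment needs 20, by the same exact test. Apoe was read in 100% of remyelination wells of every mouse and in 28.9%, 45.2%, 52.2% and 50% of untreated wells. P2ry12 was read in 55.2%, 45.5%, 36.1% and 54.8% of remyelination wells and in 97.8% to 100% of untreated wells. Tmem119 was read in 31.9% ± 13.8 (SD, n = 4) against 97.8% ± 2.54, and Selplg in 60.7% ± 9.62 against 100% ± 0. Cybb was read in 27.6% to 63.9% of remyelination wells and in 0% to 2.17% of untreated wells. Clec7a was read in 36.4% to 61.1% of remyelination wells and in none of the 173 untreated wells after thinning. Among those whose share did not pass were Cst3, B2m, H2-Ab1, C4b, Ifi27l2a, Ifitm3, Il1b, Fn1, Mki67 and Mbp.

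**Figure D3:**
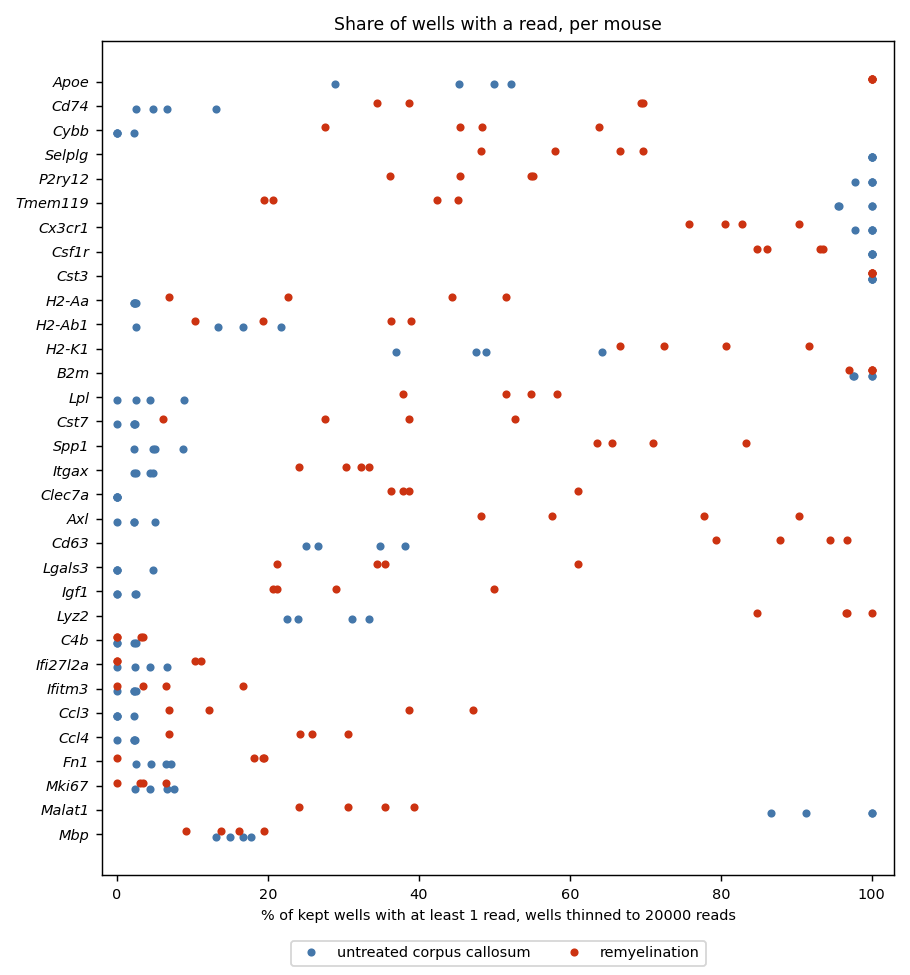
Share of kept wells with at least 1 read of each named panel gene after thinning to 20000 reads per well, with 1 point per mouse, for untreated corpus callosum (blue) and remyelination (red). In the 23 genes that passed the mice do not overlap, as in Apoe, Selplg, P2ry12, Tmem119 and Spp1.

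A single read is weak evidence of expression on these plates. All 4 negative wells of the cuprizone plate had Apoe reads, 46 to 71 of their 619 to 719 gene counts, and the 4 negative wells of the untreated plate had none. P2ry12 was read in 16 of the 20 negative wells of the series, and Tmem119 in 13. Both were read in 4 of 4 negative wells of the untreated plate, and in 2 and 0 of 4 of the cuprizone plate. Spp1 and Lyz2 were read in 4 of 4 negative wells of the cuprizone plate and in 0 of 4 of the untreated plate. The negative wells of the 2 plates thus differed in the same direction as the shares of these genes, and the part of this background was not tested. By level the contrast was as plain: Apoe was above 1000 unscaled CPM in 127 of 129 remyelination wells and in 30 of 173 untreated wells. The remyelination wells had a median of 41560 Apoe reads, and 1 of them had 100 or fewer. With at least 3 reads required, 17 panel genes were again higher and 6 lower.

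Apoe was spread over the cells, while several other raised genes were held by few of them. Of 129 remyelination wells, 32 held 50% of the summed Apoe level, and 33 each did for Fth1 and Ctsb, 34 for B2m and 36 for Ctsd. Spp1 was above 1000 CPM in 57 wells, with 8 wells holding 50% of its level, and Cd74 was above 1000 CPM in 43 wells, with 10 holding 50%. Lpl was above 1000 CPM in 43, Clec7a in 27, Cst7 in 23 and Ccl3 in 18 wells, and 4 wells held 50% of Ccl3. P2ry12 was above 1000 CPM in 46 of 129 remyelination wells against 169 of 173 untreated wells, and Tmem119 in 18 against 161. After thinning, 61 remyelination wells had reads of both P2ry12 and Apoe, 68 of Apoe alone and none of P2ry12 alone. Among untreated wells 75 had both, 97 had P2ry12 alone and 1 had Apoe alone. Apoe was read in all 4 negative wells of the cuprizone plate and in 0 of 4 of the untreated plate. The numbers of wells with P2ry12 alone therefore cannot be compared between the 2 groups. Malat1, a long RNA kept in the nucleus, fell into 2 ranges: it was above 1000 CPM in 38 of 129 remyelination wells and in 157 of 173 untreated wells, and 72 remyelination wells had any read of it.

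**Figure D4:**
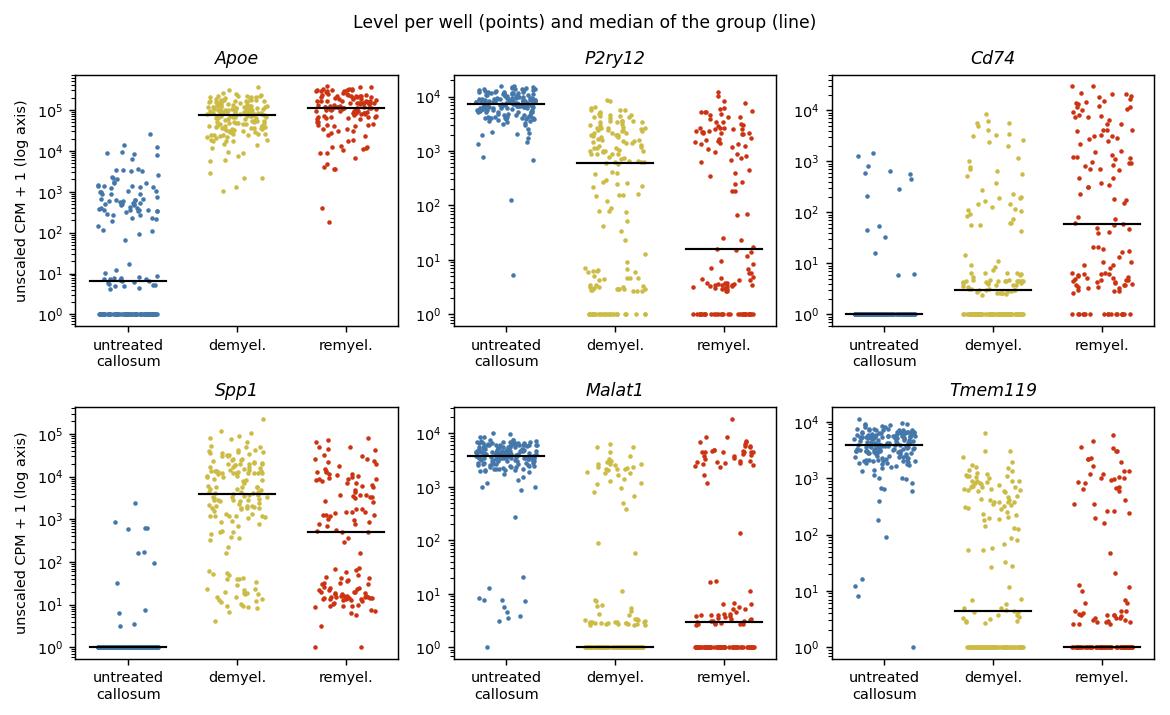
Level of 6 genes in each kept well, as unscaled CPM + 1 on a log axis, with the group median as a line, in untreated corpus callosum, demyelination and remyelination. Apoe exceeds 1000 CPM in 127 of 129 remyelination wells, whereas P2ry12, Cd74, Spp1 and Malat1 are spread from no reads to maxima of 12260 to 79070 CPM within the same group.

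Remyelination and demyelination, which shared a plate, differed in 6 of 14057 genes, 0.0427% of those tested, by edgeR's quasi-likelihood test: 2 were higher (0.0142%) and 4 lower (0.0285%). With the same test, 14.1% of genes had an unadjusted p under 0.05, and DESeq2 called 292 higher and 270 lower. Of the 6, Racgap1 falls outside the rule for named genes and is named after its values were seen. Both comparisons share the remyelination mice, and the comparisons of the 2 cuprizone stages with untreated tissue share the untreated mice, so values are given side by side. Cst3, the secreted protease inhibitor cystatin C, was 41560, 31130, 24260 and 25990 CPM in remyelination and 16550, 14240, 14420 and 11980 CPM in demyelination (log2 fold change 1.10 ± 0.16, adjusted p = 0.0093). In untreated corpus callosum it was 36980, 29480, 40040 and 32560 CPM, and remyelination did not differ from that past the threshold (adjusted p = 0.63). Malat1 was 642, 1605, 1084 and 1331 CPM in remyelination, 417, 345, 370 and 315 CPM in demyelination and 2233 to 3182 CPM in untreated mice. It was above demyelination (log2 fold change 1.69 ± 0.24, adjusted p = 0.0093) and below untreated tissue (log2 fold change -1.23 ± 0.24, adjusted p = 0.0068). The call against demyelination was lost without demyelination mouse 2. The call against untreated tissue was lost with the stricter well filter and among wells with 1000 to 2500 genes, while the direction stayed.

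The 4 genes lower than in demyelination were Ctsd, Grn, Sparc and Racgap1. Ctsd was 18870 to 23100 CPM in remyelination, 41530 to 50580 CPM in demyelination and 5586 to 8643 CPM in untreated mice, so remyelination lay between the other groups (log2 fold change to demyelination -1.10 ± 0.13, adjusted p = 0.0023). Grn was likewise 2255 to 3320 CPM between 5373 to 6751 CPM and 1292 to 1590 CPM (adjusted p = 0.013), a call lost without remyelination mouse 2 or demyelination mouse 2. Sparc was 1614 to 2745 CPM, below both demyelination (4916 to 7591 CPM, adjusted p = 0.0023) and untreated mice. Racgap1, a gene of cytokinesis, had 8 counts in all remyelination mice, at most 0.243 CPM, against 27.4 to 80.3 CPM in demyelination (adjusted p = 0.026). The genes of the disease-associated list stood at like levels in the 2 stages for Clec7a (811 ± 312 and 774 ± 101 CPM) and Axl (1036 ± 207 and 1176 ± 78.0 CPM). Cst7 was 625 ± 342 CPM in remyelination and 2571 ± 530 in demyelination (adjusted p = 0.29). Cybb was 1059 ± 306 and 293 ± 108 CPM, and Cd74 3873 ± 3197 and 448 ± 282 CPM, each with an adjusted p of 0.29. None of these last differences passed, and a p above the threshold does not show that the stages were alike.

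**Figure D5:**
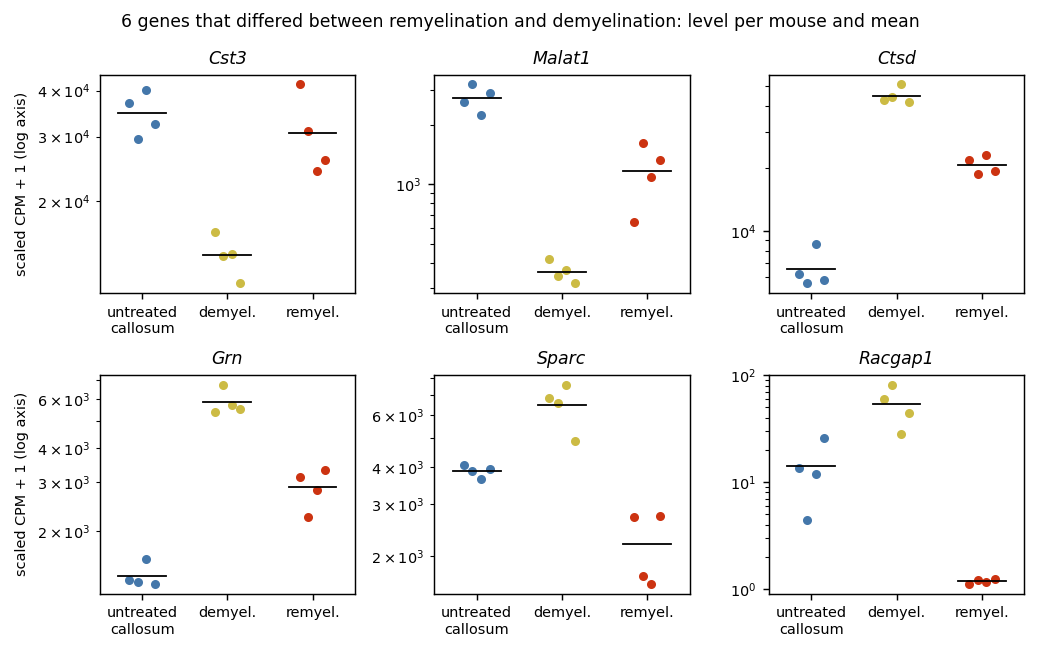
Level of the 6 genes called between remyelination and demyelination, as scaled CPM + 1 on a log axis, for each mouse, with the mean of 4 mice as a line. In Ctsd and Grn the remyelination mice lie between untreated and demyelination mice, and in Cst3 they overlap the untreated mice.

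The remyelination values were also set against the summed cells of all 6 untreated regions of the series, 24 sums in all, with levels scaled over the 40 sums of the series. Of the 353 higher genes, 249 were above all 24 untreated sums in each of the 4 mice, and 37 of the 85 lower genes were below all 24. Over all tested genes these shares were 2.87% and 1.22%. The 24 sums include the corpus callosum sums against which the genes were called, so called genes met part of this criterion by selection. The counts are therefore no separate test against the other regions. Apoe was 170500 to 275200 CPM on this scale against at most 2223 CPM, and Cybb 1005 to 1843 CPM against at most 78.4 CPM. Selplg was 868 to 1457 CPM against at least 3847 CPM. The Ccl3, Lag3 and Grn ranges overlapped those of the untreated regions, with untreated maxima of 1158 CPM for Ccl3, 464 CPM for Lag3 and 2698 CPM for Grn.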

How the data were processed

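Per the submitters' processing notes, reads were mapped to GRCm38 (STAR 2.5.2b) and assigned to genes (featureCounts 1.5.1), and the authors deposited raw read counts per gene and well. Neither the annotation release nor the strand setting is given in the sources used here. Reads, not molecules, were counted, so counts include PCR copies. Kept wells were summed per labelled mouse (12 sums of 3 groups). edgeR 4.0.16 (R 4.3.3) was fitted with TMM scaling, filterByExpr (minimum count 10, total 15) and a robust quasi-likelihood test, with Benjamini-Hochberg adjustment at 0.05 over 14057 genes. Shares of wells with a read were compared by exact permutation with 4 mice a group. P-values measure the spread between these labelled mice.

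The members and gene lists were chosen with earlier results of these data known. Genes were named by rank among called genes of at least 100 CPM in 1 group, by adjusted p, by list, and by a panel of 34. Alternatives were DESeq2 1.42.0, other scalings and filters, other control groups, a replicate block, thinning, means of log values per cell (limma 3.58.1) and leaving out mice; remyelination mice 3 and 4 alone were added after seeing the data. On simulated counts of this comparison (13292 genes), 0 of 50 genes changed 2-fold, 10 of 50 changed 4-fold, 28 of 50 changed 8-fold and 42 of 50 changed 16-fold were recovered, with 1 false call. The changed genes were drawn only from those averaging over 100 CPM in the real sums, so the rates do not cover genes below that. Demyelination was simulated at the untreated levels. Results of a few genes are not reported here.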

Additional observations from a re-analysis of the deposited data

Results flagged for a closer look

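In 22 of 236 groups of 4 mice tested, 1 mouse stood apart from the other 3 by Dixon's criterion. Chance gives about 1 in 20 for values on a continuous scale. Shares of wells move in steps of 1 well, and where 3 mice are tied or nearly so, 1 well can flag the other mouse. The 22 therefore cannot be set against 1 in 20. Among remyelination mice, Slc2a5 (430.1 CPM) and Atf3 (325 CPM) were high in mouse 1, Ifitm3 (175.5 CPM) in mouse 3 and Mki67 (69.14 CPM) in mouse 4. Among untreated mice, mouse 1 was high in Anxa5 (62.92 CPM), Cyba (424.4 CPM) and Lpl (57.39 CPM). Untreated mouse 2 was high in H2-D1 (494.5 CPM) and low in Bhlhe41 (156.5 CPM). Untreated mouse 3 was high in Grn (1590 CPM), and untreated mouse 4 was low in Bst2 (2.437 CPM).

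Of the shares of wells with a read in remyelination, Clec7a was high in mouse 3 (61.11%), B2m low in mouse 2 (96.97%) and Fn1 low in mouse 1 (0%). In untreated mouse 3 the shares of Cybb (2.174%) and Ccl3 (2.174%) were high and that of P2ry12 (97.83%) low. In the other untreated mice Cx3cr1 was low in mouse 1 (97.78%), Lgals3 was high in mouse 2 (4.762%), Ifitm3 was low in mouse 2 (0%), and Cst7 and Ccl4 were low in mouse 4 (0% each).

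The effects of the 2 cuprizone stages differed in 6 genes, where the test of remyelination against demyelination is the test of that difference. The log2 fold change of remyelination minus demyelination was -1.102 for Ctsd, -1.015 for Grn, -1.562 for Sparc, -8.102 for Racgap1, 1.104 for Cst3 and 1.687 for Malat1, all by edgeR.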

How the results depend on the processing

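Counts of genes higher and lower than untreated tissue depended on the fit. From 353 higher and 85 lower, they became 632 and 930 with DESeq2, 1448 and 950 against the mean of the 6 untreated regions, and 191 higher with a stricter well filter. They were 74 and 12 in wells with 1000 to 2500 genes. Lower genes numbered 406 with all 10 groups, 522 with only these 2 groups, 4892 by means of log values per cell, 137 with wells thinned, 43 with remyelination mice 3 and 4 alone and 36 with the replicate block. Leaving out 1 mouse gave 230 to 340 higher and 26 to 55 lower. These fits tested different numbers of genes, so the counts are not like for like. The main fit, DESeq2 and the replicate block tested 14057 genes, and all 10 groups or the 6 regions 26684. The stricter filter tested 13662, only these 2 groups 12688, thinned wells 8738 and wells with 1000 to 2500 genes 8037. Leaving out 1 mouse tested 15160 to 16644, and remyelination mice 3 and 4 alone 20572. Same-numbered mice did not deviate together (correlations of -0.03 to 0.036), so they share only a number.

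Against demyelination, 2 higher and 4 lower became 292 and 270 with DESeq2, 54 and 47 with all 10 groups, 53 and 61 with no filter on low counts, 6 and 132 by means of log values per cell, 0 and 1 with only these 2 groups, 0 and 1 in wells with 1000 to 2500 genes, and 2 lower with mice 3 and 4 alone. Leaving out 1 mouse gave 1 to 3 and 2 to 5. Here too the genes tested differed, with 34540 without the filter on low counts and 10182 with only these 2 groups. Panel shares that passed ranged from 0 to 17 higher and 0 to 6 lower; they were 0 without any 1 untreated mouse, when 16 or 17 genes reached the smallest p of the exact test and 20 are needed to pass, and 16 to 17 higher and 6 lower without any 1 remyelination mouse.

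Under 23 alternatives, 32 of 102 called genes of the naming rule kept their call in all, and of 2342 values 224 lost it and 4 reversed. The reversals came with means of log values per cell: Grn (-0.23), Cyba (-0.32), Cd14 (-0.19) and Bhlhe41 (-0.52). The cause was not tested. Where a gene had no read in a group, it was not detected at this depth.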
